A study of Sus scrofa with 12 samples.

Results

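PTHLH, the gene of parathyroid hormone-related protein, and PTH1R, the gene of the receptor through which that protein signals, were followed in RNA-seq data from cultured smooth muscle cells of the pig (Sus scrofa) coronary artery. They are 2 of the 21153 genes in the deposited count table. Each was found by its pig Ensembl symbol, PTHLH as ENSSSCG00000036893 and PTH1R as ENSSSCG00000011326, and both passed the filter on low counts that left 12444 genes. PTHLH was chosen by its measured response to the treatments and its joint response, the same values that are given below, so these stand as a description without a test. PTH1R was added as its receptor and is tested.

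The 12 libraries formed 4 groups of 3, numbered 1 to 3 and compared after 4 h of treatment: PDGF-BB (30 ng/ml) together with S100A4 (1 µg/ml), S100A4 alone, PDGF-BB alone, and a control with neither protein. PDGF-BB is the homodimer of the B chain of platelet-derived growth factor, a mitogen for smooth muscle cells, and S100A4, written oS100A4 in part of the labels with no meaning given for the prefix, belongs to the S100 family of calcium-binding proteins, which can be released and act on cells from outside. All groups were primary cultures described as differentiated and contractile, at passage 6 to 11, in medium with 10% fetal calf serum, which is itself a source of growth factors. The design gives 3 animals as the source, and no label ties a library to an animal.

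Parathyroid hormone-related protein is made by many tissues, blood vessels among them, and acts mostly on the cell that makes it or on its neighbours. It shares its receptor, a class B G-protein-coupled receptor, with parathyroid hormone. The receptor raises cyclic AMP through adenylyl cyclase and activates protein kinase A, and it can also couple to phospholipase C. In vessels the secreted protein relaxes smooth muscle through cyclic AMP. In rat vascular smooth muscle, a form that enters the nucleus favours proliferation and lowers the cell cycle inhibitor encoded by CDKN1B.

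The libraries held 21455021 to 32448438 counts each. The 4 libraries with number 2 separated from the rest along the first principal component (49.9% of the variance), and libraries with the same number varied together in all groups, so values are also given within each number. All 8 smooth muscle markers looked at were detected, led by ACTA2 at a mean of 12800 CPM (reads of the gene relative to the scaled library total), while TAGLN had only 83 to 213 counts, and their sum ranged from 7920 to 9300 CPM in libraries numbered 2 and from 17500 to 21900 CPM in the others. Of 5 macrophage markers, PTPRC was at 0 counts in all 12 libraries, CD163 at 0 or 1 and AIF1 at 3 to 10, while CD68 had 15 to 32 counts and CSF1R 14 to 36. With bulk RNA, fewer cells of a type and less RNA per cell cannot be told apart.

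PTHLH lies at chr5:45750968-45763421 of Sscrofa11.1 in the RefSeq annotation, where no other annotated gene overlaps it. It was present in every library, at 178 to 1152 counts, and its level followed the order S100A4, PDGF-BB+S100A4, PDGF-BB, control. In cells with both proteins it reached 19.1, 25.3 and 32.3 CPM in replicates 1, 2 and 3, in cells with S100A4 alone 26.1, 42.5 and 44 CPM, in cells with PDGF-BB alone 11.7, 16.3 and 21.6 CPM, and in control cells 7.16, 10.3 and 10.9 CPM. All libraries of each treated group lay above all control libraries. The S100A4 and PDGF-BB libraries did not overlap either, whereas the libraries with both proteins overlapped those of each single treatment. Within every group replicate 1 was the lowest and replicate 3 the highest.

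**Figure D1:**
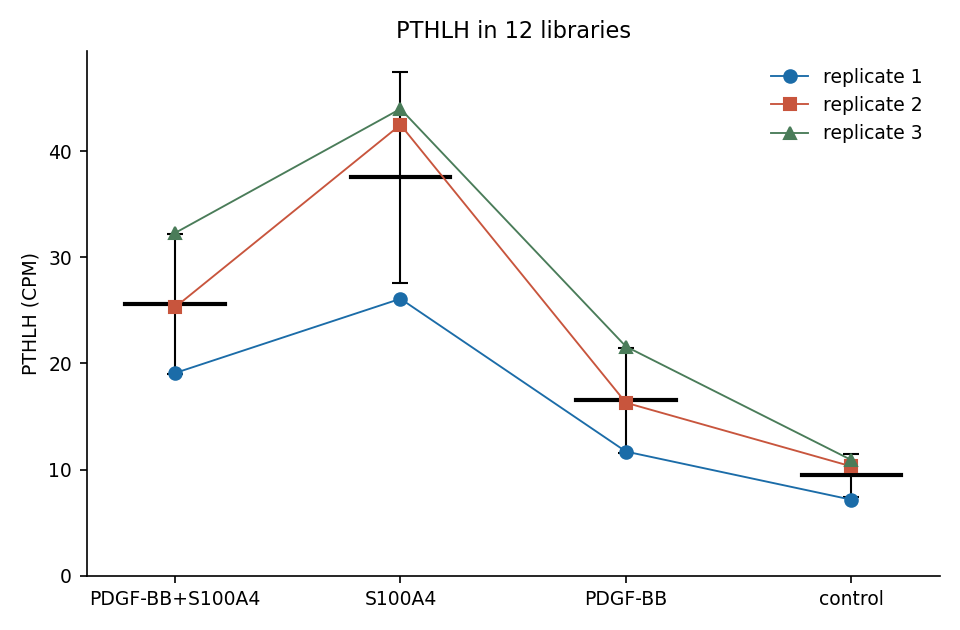
PTHLH level in CPM (vertical axis) in each of the 12 libraries by group; coloured points joined by lines share a replicate number, the thick black bar is the group mean and the thin bar its SD over 3 libraries. Every line peaks with S100A4 alone, drops with both proteins, drops further with PDGF-BB alone and is lowest in control.

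Group means were 25.6 ± 6.57 CPM with both proteins, 37.6 ± 9.92 CPM with S100A4, 16.5 ± 4.92 CPM with PDGF-BB and 9.44 ± 2 CPM in control (SD, n = 3 libraries each). The fitted log2 fold change against control was 1.44 ± 0.29 (SE) with both proteins, a 2.71-fold higher level. With S100A4 alone it was 1.99 ± 0.3 (3.98-fold), and with PDGF-BB alone 0.81 ± 0.29 (1.75-fold). Only 48 of the 12444 tested genes had a larger log2 change with S100A4 than PTHLH, against 253 with both proteins and 501 with PDGF-BB. These comparisons share the same control libraries.

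Within a group the PTHLH level differed with replicate number, while the changes against control in the same number lay closer together. With S100A4 alone against control, the log2 change was 1.86, 2.04 and 2.01 in replicates 1, 2 and 3. With both proteins against control it was 1.41, 1.29 and 1.56, and with PDGF-BB alone against control 0.71, 0.66 and 0.98. With replicate number as a block in the fit, the estimates were nearly as before and the errors narrower: 1.43 ± 0.08 with both proteins, 1.98 ± 0.08 with S100A4 and 0.79 ± 0.09 with PDGF-BB.

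The joint response was less than multiplicative. Had the 2 single fold changes multiplied, the level with both proteins would have been 42.8, 67.5 and 87.1 CPM in replicates 1, 2 and 3, and the observed level was 44.7%, 37.4% and 37.1% of that. On the log2 scale the shortfall, which is the interaction term, was -1.15, -1.41 and -1.43, and the fit gave -1.37 ± 0.41, or -1.35 ± 0.11 with the block. Among all tested genes 27 had a lower interaction value than PTHLH, and the median over all of them was 0.008.

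It was also less than additive. Adding the 2 single gains in CPM to the control level gives 30.7, 48.6 and 54.7 CPM, and the observed values minus these sums were -11.6, -23.3 and -22.4 CPM in the 3 replicates. S100A4 alone was followed by a gain of 19, 32.3 and 33.1 CPM over control. On top of PDGF-BB the gain over PDGF-BB alone was 7.4, 8.96 and 10.7 CPM.

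PDGF-BB went with a higher level alone and a lower level beside S100A4. Over control PDGF-BB alone showed a gain of 4.58, 6.02 and 10.7 CPM. Added to S100A4, its difference from S100A4 alone was -6.98, -17.3 and -11.7 CPM, so that cells with both proteins held 73.3%, 59.4% and 73.4% of the level with S100A4 alone. The fitted log2 change of both proteins against S100A4 alone was -0.56 ± 0.29 (-0.55 ± 0.07 with the block). Against PDGF-BB alone it was 0.63 ± 0.29 (0.63 ± 0.08 with the block), with 0.7, 0.63 and 0.58 in replicates 1, 2 and 3. S100A4 alone exceeded PDGF-BB alone by 1.18 ± 0.29 (1.19 ± 0.07 with the block).

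**Figure D2:**
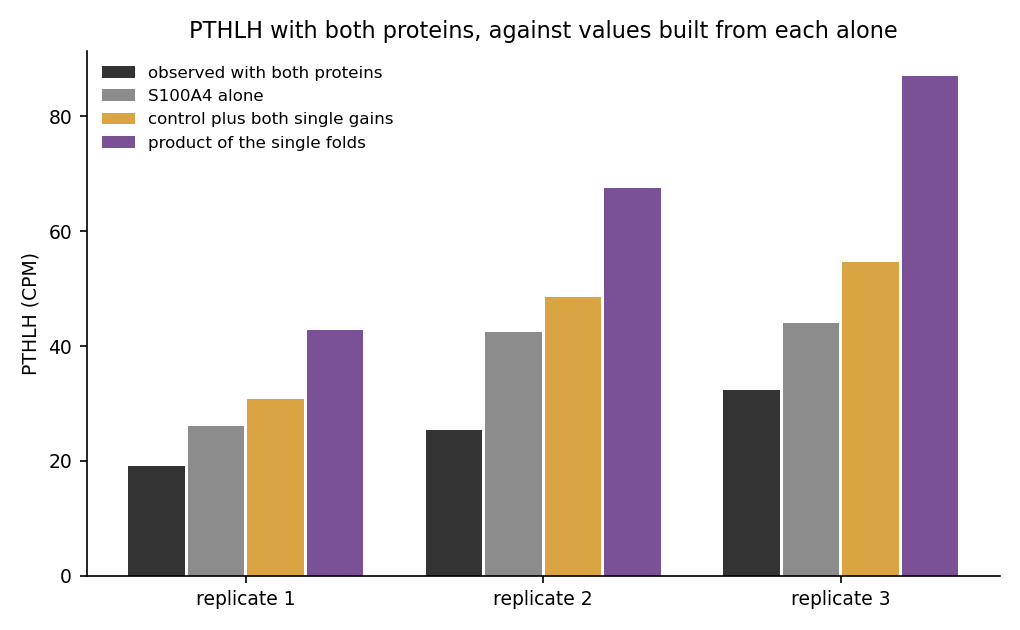
PTHLH in CPM for each replicate number: the observed level with both proteins, the level with S100A4 alone, the control level plus both single gains, and the product of the single fold changes. In each number the observed bar (19.1, 25.3 and 32.3 CPM) is the shortest of the 4.

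The lowest PTHLH count, 178 in control replicate 1, has an exact Poisson 95% interval of 153 to 206. The highest, 1152 in S100A4 replicate 3, has one of 1090 to 1220, so counting error was small beside the difference between these libraries. Control replicate 3 (231 counts, 10.9 CPM) and PDGF-BB replicate 1 (290 counts, 11.7 CPM) lay closer. Their intervals, 202 to 263 and 258 to 325 counts, overlapped. These intervals cover counting error only. Marker lists were compared by their summed level over the groups as well. The endothelial list, led by ERG, ran from 133 to 190 CPM with both proteins, 59.5 to 136 CPM with S100A4, 120 to 201 CPM with PDGF-BB and 55.2 to 127 CPM in control. Its detected members include CDH5 at a mean of 24.6 CPM, and its member KDR had at most 4 counts in a library. The fibroblast list ran from 2410 to 2640, 2510 to 2680, 2430 to 2790 and 2540 to 2810 CPM in the same order of groups. Most of that sum was COL15A1 (mean of 2040 CPM), which was lowest in libraries numbered 2, whereas the 5 other fibroblast markers were all highest there. LUM averaged 325, 721 and 208 CPM and PDGFRA 34.6, 138 and 11.1 CPM in libraries numbered 1, 2 and 3. The part of these markers in the PTHLH values was not tested.

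Genes beside PTHLH on chromosome 5 were looked at for the same response. KLHL42, whose protein is an adaptor of a ubiquitin ligase, lies 166 kb away. Its log2 change was 0.51 ± 0.17 with both proteins, 0.42 ± 0.17 with S100A4 and 0.48 ± 0.17 with PDGF-BB against control, with edgeR adjusted p-values of 0.051, 0.67 and 0.082. It passed in all 3 comparisons with the replicate block (adjusted p = 4.2e-06, 0.0003 and 1.1e-05). With the block 56.1%, 10.7% and 48.8% of all tested genes were called in these comparisons. CCDC91, 225 kb away on the other side, did not pass, with -0.08 ± 0.2, 0.13 ± 0.2 and -0.08 ± 0.2 (edgeR adjusted p = 0.83, 1 and 0.89). MRPS35, a subunit of the mitochondrial ribosome 210 kb away, rose by 0.34 ± 0.09 with both proteins and by 0.35 ± 0.09 with PDGF-BB (edgeR adjusted p = 0.019 and 0.024), and its value with S100A4 was 0.2 ± 0.09 (adjusted p = 0.81). None of the 5 tested neighbours passed in the interaction in either fit. MANSC4, between KLHL42 and MRPS35, was below the filter.

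The genes whose log2 CPM most resembled that of PTHLH over the 12 libraries were REL (Pearson r = 0.957, Spearman rho = 0.944), HIVEP1 (r = 0.933), FAM171B (r = 0.932), KLHL15 (r = 0.926), RNF125 (r = 0.916), GPCPD1 (r = 0.916), ZC3H12A (r = 0.884) and FAT1 (r = 0.883). They are the highest of 9417 genes with a symbol and a mean of at least 1 log2 CPM, and the libraries that give these values share replicate numbers and a common scaling. After each replicate number had been centred on its own mean, the 8 highest were FAM171B (r = 0.982), REL (0.974), STEAP1 (0.973), CCDC174 (0.961), KLHL15 (0.958), ST6GAL1 (0.953), TFE3 (0.953) and BNC2 (0.952). FAM171B, REL and KLHL15 stood in both sets.

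All of these last 8 genes had their highest mean with S100A4 alone and their lowest in control, with smaller changes than PTHLH. REL, a subunit of NF-kB, averaged 30.7 CPM with both proteins, 36.4 CPM with S100A4, 23 CPM with PDGF-BB and 19.5 CPM in control. FAM171B averaged 5.04, 6.25, 3.93 and 2.68 CPM in the same order of groups. ST6GAL1, a sialyltransferase, averaged 33.6, 42.8, 22.7 and 20.7 CPM. Their interaction values were -0.48 for REL, -0.86 for FAM171B and -0.49 for ST6GAL1 on the log2 scale. Since these genes were picked for likeness to PTHLH, none of these values carries a test.

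**Figure D3:**
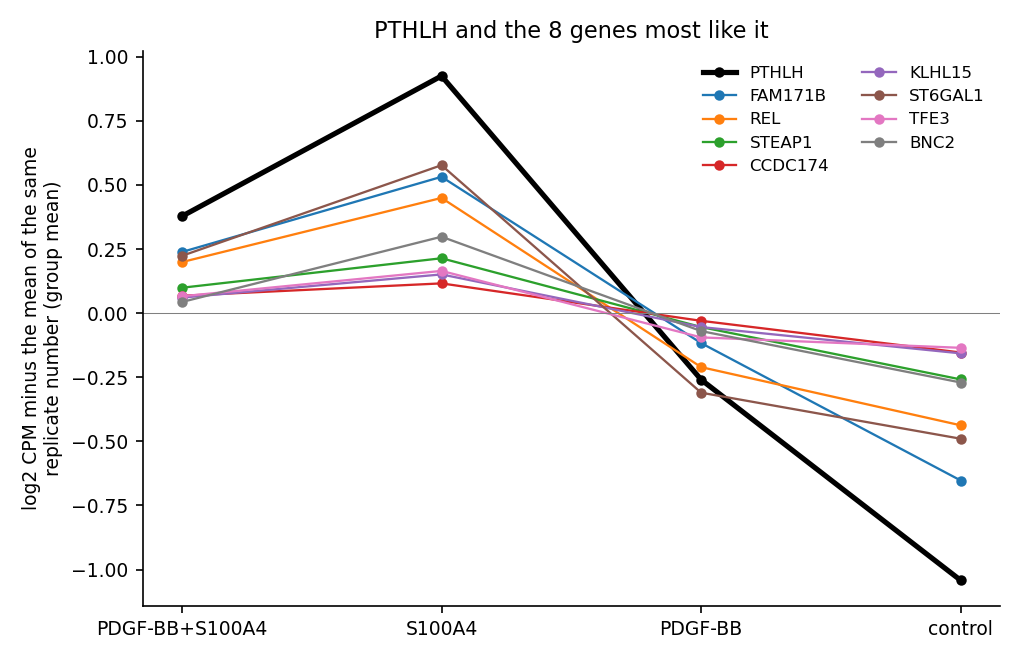
Group means of log2 CPM after subtracting the mean of the same replicate number (vertical axis), for PTHLH (thick black line) and the 8 genes with the highest Pearson correlation with it over 12 libraries after that centring (coloured lines). All lines are highest with S100A4 alone and lowest in control, and PTHLH spans the widest range.

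PTH1R was near the limit of detection. It lies at chr13:29749940-29775361 of Sscrofa11.1 in the RefSeq annotation, with no overlapping gene. In replicates 1, 2 and 3 it had 14, 5 and 6 counts with both proteins, 18, 7 and 3 counts with S100A4, 13, 1 and 6 counts with PDGF-BB, and 22, 8 and 5 counts in control. Replicate 1 was the highest in every group, and the groups overlapped throughout. It passed the filter through the 4 libraries numbered 1, the only ones at or above the filter's level of 0.404 CPM.

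**Figure D4:**
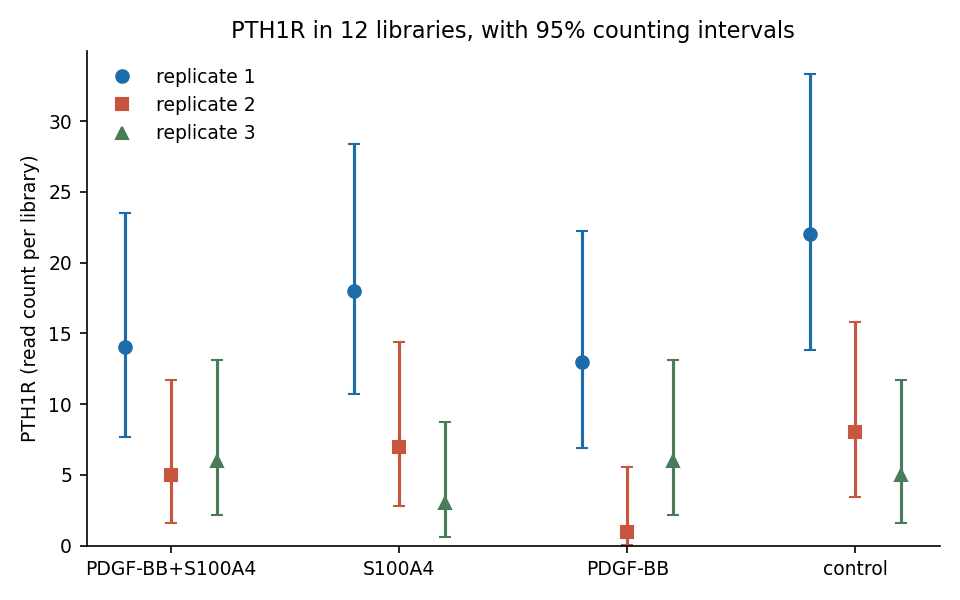
Read counts of PTH1R in each library by group, with exact Poisson 95% intervals as bars; marker shape and colour give the replicate number. The 4 libraries numbered 1 hold 13 to 22 counts and the other 8 hold 1 to 8.

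Libraries numbered 1 averaged 0.705 ± 0.166 CPM of PTH1R (SD, n = 4), those numbered 2 averaged 0.193 ± 0.112 CPM and those numbered 3 averaged 0.201 ± 0.0634 CPM. Summed over a number, this is 67, 21 and 20 counts. Markers of bone and cartilage cells, in which the receptor is abundant, were low: ACAN averaged 6.1, 0.606 and 1.94 CPM in libraries numbered 1, 2 and 3, IBSP 1.38, 0.808 and 0.532 CPM, and COL2A1 0.54, 0.191 and 0.302 CPM. SOX9 was instead highest in libraries numbered 2 (5.44, 13.5 and 4.15 CPM), and ALPL had at most 6 counts in a library. The summed level of the 5 listed markers with a row was 6.68 to 18.1 CPM with both proteins, 7.64 to 13.1 CPM with S100A4, 5.03 to 18.9 CPM with PDGF-BB and 8.68 to 16.8 CPM in control. The part of these cells in the PTH1R values was not tested.

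Genes that most resembled PTH1R over the 12 libraries were TSPYL5 (Pearson r = 0.901), P2RX7 (0.899), MDGA1 (0.878), ACOX3 (0.877) and GSTK1 (0.876). After centring of each number they were ASL (r = 0.862), CACNG7 (0.853), SCAMP2 (0.837), TMEM117 (0.835) and CPQ (0.826), so that no gene stood in both sets. These are descriptions of a gene with 1 to 22 counts per library, with no test.

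No difference of PTH1R between groups passed edgeR's quasi-likelihood test. Against control the log2 change was -0.39 ± 0.92 with both proteins (adjusted p = 0.83), -0.25 ± 0.91 with S100A4 (adjusted p = 1) and -0.92 ± 0.94 with PDGF-BB (adjusted p = 0.62). Of all tested genes, 22%, 0.563% and 14.7% were called in these comparisons. The 95% intervals of the log2 change were -2.43 to 1.66, -2.28 to 1.78 and -3 to 1.17. With the replicate block they were narrower, at -1.26 to 0.5 with both proteins, -1.11 to 0.61 with S100A4 and -1.83 to 0.01 with PDGF-BB, and PTH1R did not pass either (edgeR adjusted p = 0.46, 0.76 and 0.096). Both proteins against PDGF-BB gave 0.53 ± 0.96 (0.273% of all genes called), both proteins against S100A4 -0.14 ± 0.93 (15% called) and S100A4 against PDGF-BB 0.67 ± 0.95 (11.1% called), with edgeR adjusted p-values of 1, 0.97 and 0.79. The interaction was 0.78 ± 1.32 (edgeR adjusted p = 1, 0% of all genes called, and 0.113% called with the block).

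Genes around the ligand and receptor were described from 7 lists of 96 genes in all, of which 78 were tested, 15 were below the filter and 3 (GNAS, CREM and TNFSF11) had no row under that symbol. With both proteins against control 19 of the 78 were called, 12 higher and 7 lower (24.4%, beside 22% of all tested genes, of which 13.2% higher and 8.75% lower). With S100A4 none was called without the block (4 at an unadjusted p under 0.05 in edgeR, and 1, ETS1, by DESeq2), and 15 were called with it, 10 higher and 5 lower (19.2%, beside 10.7% of all genes, of which 6.46% higher and 4.28% lower). With PDGF-BB 10 were called, 6 higher and 4 lower (12.8%, beside 14.7% of all genes, of which 9.09% higher and 5.62% lower). With the block the counts were 47 with both proteins (60.3%, beside 56.1% of all genes) and 45 with PDGF-BB (57.7%, beside 48.8% of all genes). The median log2 change of the 78 genes was 0.06, -0.01 and 0.04 in these comparisons, and that of all tested genes -0.025, -0.017 and -0.016. None of the 78 was called in the interaction in edgeR with or without the block, nor by DESeq2 (2 at an unadjusted p under 0.05). The count with both proteins dropped to 9 without control replicate 1, 11 without control replicate 3 and 12 without PDGF-BB+S100A4 replicate 1. Over all tested genes the calls dropped as well, from 2732 to 1835, 1984 and 1932 in the same order.

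Other ligands and receptors of the family were scarcely detected. PTH, parathyroid hormone itself, had 0 or 1 count in each library, PTH2 had 0 in all, and the second receptor PTH2R had 0 to 3. The accessory proteins RAMP1, RAMP2 and RAMP3, of which RAMP2 can associate with PTH1R, were tested and not called in any comparison with control in either fit. RAMP3 averaged 1.71 CPM with both proteins, 2.15 CPM with S100A4, 1.98 CPM with PDGF-BB and 1.77 CPM in control, and RAMP2 1.4, 1.05, 1.41 and 1.08 CPM.

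Proteases that cut prohormones into active peptides differed widely in level. None of the 6 tested genes for processing and nuclear import was called in the 3 comparisons with control by edgeR without the block (0 at an unadjusted p under 0.05) or by DESeq2. Of all tested genes, edgeR without the block called 22% with both proteins, 0.563% with S100A4 and 14.7% with PDGF-BB. FURIN, a proprotein convertase, averaged 232 CPM with both proteins, 176 CPM with S100A4, 215 CPM with PDGF-BB and 178 CPM in control. It passed with the block with both proteins and with PDGF-BB (edgeR adjusted p = 5.8e-07 and 2.6e-05), as did KPNB1, the importin that carries the protein into the nucleus (adjusted p = 1.2e-05 and 2.8e-05). With the block these were the 2 of 6 called in each comparison (33.3%, beside 56.1% and 48.8% of all tested genes). PCSK5, PCSK6 and PCSK7 did not pass in either fit in these comparisons, and PCSK1, PCSK2 and PCSK4 were below the filter, at 0 to 8 counts.

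Of 29 tested genes of G protein, cyclic AMP and phospholipase C signalling, 6 were called with both proteins, 5 higher and 1 lower (20.7%, beside 22% of all tested genes). PLCB3, a phospholipase C, rose by 0.41 ± 0.08 with both proteins and 0.39 ± 0.08 with PDGF-BB (edgeR adjusted p = 0.005 and 0.0092). PRKAR2A, a regulatory subunit of protein kinase A, rose by 0.3 ± 0.07 and 0.35 ± 0.07 (adjusted p = 0.012 and 0.0078). GNA11, a Gq-class subunit, rose by 0.3 ± 0.07 with both proteins (edgeR adjusted p = 0.012, and 0.051 without PDGF-BB+S100A4 replicate 1). The CREB coactivator CRTC2 rose by 0.22 ± 0.06 with both proteins (edgeR adjusted p = 0.021), a call lost without control replicate 1 (0.064), control replicate 3 (0.067) or PDGF-BB+S100A4 replicate 1 (0.08).

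PDE4B, a phosphodiesterase that degrades cyclic AMP, moved with S100A4 once replicate number was in the fit. It held 14.6, 89.9 and 28.8 CPM in replicates 1, 2 and 3 with both proteins, 23.5, 85.5 and 29.6 CPM with S100A4, 9.56, 50.2 and 8.48 CPM with PDGF-BB, and 13.9, 43.4 and 11.3 CPM in control. In each number the S100A4 library was above its control, while the groups overlapped. Replicate 2 was the highest in every group. The log2 change with S100A4 was 1.01 ± 0.92 (edgeR adjusted p = 1, and 0.0027 with the block). GNAQ, another Gq-class subunit, also rose with S100A4 with the block (adjusted p = 0.004), and the adenylyl cyclases ADCY7 and ADCY9 fell (edgeR adjusted p = 0.024 and 0.017 with the block). These are 4 of the 29 tested signalling genes, 2 higher and 2 lower. Their share of 13.8% stands beside 10.7% of all tested genes called with S100A4 and the block.

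**Figure D5:**
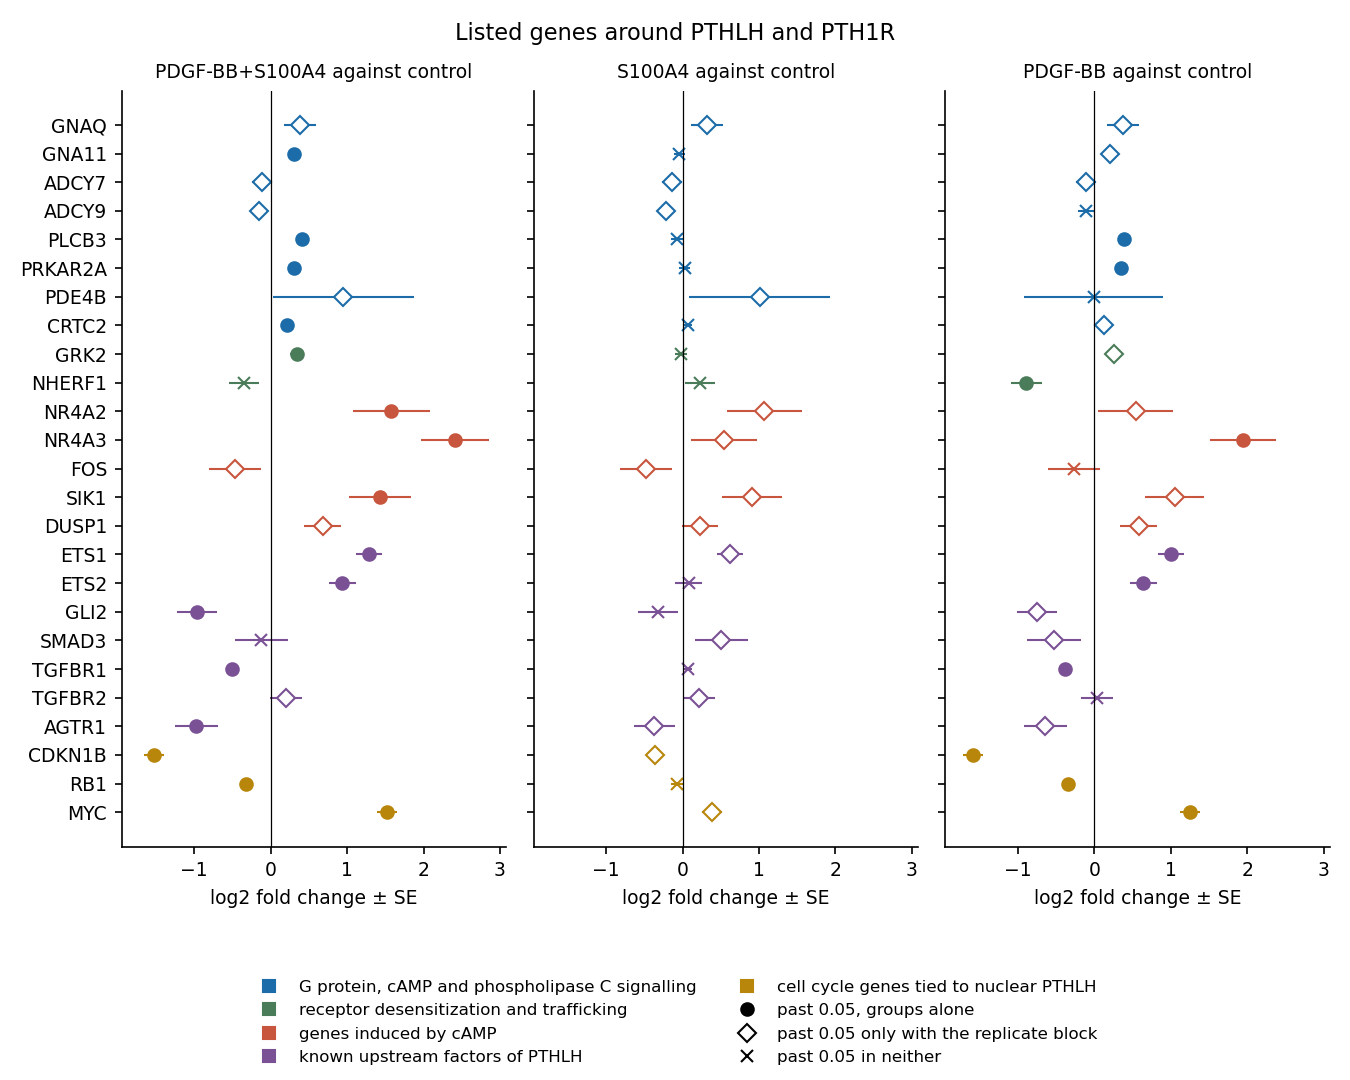
Log2 fold change ± SE against control (horizontal axes, fit on groups alone) of 25 listed genes, for both proteins, S100A4 and PDGF-BB. The genes are those named by rule or called with S100A4 with the block. Colour gives the list and marker shape which fit called the gene; CDKN1B and MYC stand farthest from 0 among the cell cycle genes, in opposite directions.

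Among 10 genes that desensitize or traffic the receptor, GRK2, a receptor kinase, rose with both proteins (0.34 ± 0.08, edgeR adjusted p = 0.017, but 0.071 without control replicate 1 and 0.055 without control replicate 3). NHERF1, a scaffold that binds the tail of PTH1R, fell with PDGF-BB (-0.89 ± 0.2, edgeR adjusted p = 0.015, but 0.052 without control replicate 2 or PDGF-BB replicate 3). With the block GRK2 passed with both proteins and NHERF1 with PDGF-BB (edgeR adjusted p = 2.8e-05 and 0.00031). Without the block 1 of the 10 was called in each of these comparisons (10%, beside 22% and 14.7% of all tested genes). With the block 4 were called in each (40%, beside 56.1% and 48.8%). NHERF1 was low, at 1.49 CPM with PDGF-BB and 2.76 CPM in control. None of the 10 passed with S100A4 in either fit (0 at an unadjusted p under 0.05 without the block). Of all tested genes, 0.563% were called with S100A4 without the block and 10.7% with it.

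Genes known to be induced by cyclic AMP had 3 of 9 tested members called with both proteins, all higher (33.3%, beside 22% of all tested genes, of which 13.2% higher), and 1 with PDGF-BB (11.1%, beside 14.7% of all tested genes). NR4A3, an orphan nuclear receptor, reached 20.1, 14.7 and 24.7 CPM in replicates 1, 2 and 3 with both proteins, 4.27, 4.4 and 7.52 CPM with S100A4, 12.7, 8.47 and 21.6 CPM with PDGF-BB, and 3.26, 2.27 and 5.71 CPM in control. The libraries with PDGF-BB, alone or with S100A4, lay above all the others. It rose by 2.41 ± 0.44 with both proteins (edgeR adjusted p = 0.0033) and by 1.94 ± 0.43 with PDGF-BB (edgeR adjusted p = 0.014, but 0.062 without control replicate 1).

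The related receptor NR4A2 rose by 1.58 ± 0.5 with both proteins (edgeR adjusted p = 0.045). In the fit without the block, leaving out any of 9 single libraries lost this call, with an adjusted p of up to 0.17. The kinase gene SIK1 rose by 1.43 ± 0.4 (edgeR adjusted p = 0.027), which was lost without control replicate 1 (0.1), control replicate 3 (0.097), or PDGF-BB+S100A4 replicate 2 (0.094) or 3 (0.057). With the block NR4A2 and SIK1 passed with both proteins (edgeR adjusted p = 6.7e-07 and 5.6e-09), as did 56.1% of all tested genes. With S100A4 alone and the block, NR4A2, NR4A3, SIK1 and the phosphatase gene DUSP1 rose (edgeR adjusted p = 0.00032, 0.043, 5e-06 and 0.042), and FOS, an immediate early factor, fell (adjusted p = 0.021). These are 5 of the 9 tested, 4 higher and 1 lower (55.6%, beside 10.7% of all tested genes, of which 6.46% higher and 4.28% lower). SIK1 averaged 43.3 CPM with both proteins, 30.1 CPM with S100A4, 33.2 CPM with PDGF-BB and 16 CPM in control.

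Factors known from other systems to act on PTHLH expression moved in both directions. With both proteins 6 of 16 tested genes were called, 2 higher and 4 lower (37.5%, beside 22% of all tested genes, of which 13.2% higher and 8.75% lower). ETS1, a transcription factor that binds the human PTHLH promoter, reached 302, 205 and 258 CPM in replicates 1, 2 and 3 with both proteins, 168, 147 and 165 CPM with S100A4, 241, 161 and 225 CPM with PDGF-BB, and 105, 97.7 and 109 CPM in control. All libraries of each treated group lay above all control libraries, and within each number the library with both proteins was the highest. The log2 change of ETS1 was 1.29 ± 0.17 with both proteins (edgeR adjusted p = 0.00051), 0.62 ± 0.17 with S100A4 (0.23, and 0.00011 with the block) and 1 ± 0.17 with PDGF-BB (0.003).

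ETS2, of the same family, rose by 0.94 ± 0.18 with both proteins (edgeR adjusted p = 0.0045) and by 0.64 ± 0.18 with PDGF-BB (edgeR adjusted p = 0.037, lost without any of 7 single libraries, with an adjusted p of up to 0.13). TGFBR1, a receptor for TGF-beta, which raises PTHLH in other cells, fell by 0.5 ± 0.06 with both proteins and by 0.39 ± 0.06 with PDGF-BB (edgeR adjusted p = 0.00027 and 0.002), and its value with S100A4 was 0.07 ± 0.06. GLI2, a Hedgehog effector, fell with both proteins (-0.96 ± 0.26, edgeR adjusted p = 0.026), a call lost without control replicate 1 (0.079) or 3 (0.085) or PDGF-BB+S100A4 replicate 2 (0.083) or 3 (0.091). With the block GLI2 passed with both proteins (edgeR adjusted p = 0.00015). AGTR1, the receptor for angiotensin II, which induces the hormone in rat vascular smooth muscle, averaged 43.9 CPM with both proteins, 66.8 CPM with S100A4, 55.2 CPM with PDGF-BB and 86 CPM in control. It fell with both proteins (-0.97 ± 0.28, edgeR adjusted p = 0.032), and with the block in all 3 comparisons (edgeR adjusted p = 2.2e-06, 0.029 and 7.3e-05). SMAD3 and TGFBR2, of the TGF-beta pathway, rose with S100A4 with the block only (adjusted p = 0.0061 and 0.031). With S100A4 and the block 4 of the 16 tested factors were called, 3 higher and 1 lower (25%, beside 10.7% of all tested genes).

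Of 5 cell cycle genes tied to nuclear parathyroid hormone-related protein, 3 were called with both proteins and 3 with PDGF-BB, 1 higher and 2 lower each time (60%, beside 22% and 14.7% of all tested genes). With S100A4 none of them was called by edgeR without the block (2 at an unadjusted p under 0.05) or by DESeq2. With the block 2 were called with S100A4 (40%, beside 10.7% of all tested genes). CDKN1B held 21.9, 23.8 and 17.5 CPM in replicates 1, 2 and 3 with both proteins, 52.6, 43.1 and 47 CPM with S100A4, 21.4, 21.2 and 18.1 CPM with PDGF-BB, and 60.8, 56.9 and 65.4 CPM in control. The 6 libraries with PDGF-BB lay below all others, and S100A4 libraries below control. It fell by 1.53 ± 0.13 on the log2 scale with both proteins and by 1.59 ± 0.13 with PDGF-BB (edgeR adjusted p = 4.8e-05 and 0.0001), and with S100A4 its change was -0.36 ± 0.12 (adjusted p = 0.5, and 0.022 with the block). MYC rose by 1.52 ± 0.13 with both proteins and by 1.25 ± 0.13 with PDGF-BB (edgeR adjusted p = 5.5e-05 and 0.00026), and its value with S100A4 was 0.39 ± 0.13 (adjusted p = 0.43, and 0.0077 with the block). RB1, the retinoblastoma gene, fell by 0.32 ± 0.08 with both proteins and by 0.34 ± 0.08 with PDGF-BB (edgeR adjusted p = 0.015 in both). Each RB1 call was lost without any of 3 single libraries, control replicates 1 and 3 among them, with an adjusted p of up to 0.063. With the block RB1 passed in both comparisons (edgeR adjusted p = 0.00018 and 0.0001). SKP2, part of a ubiquitin ligase that targets the CDKN1B protein, had log2 changes of 0.49 ± 0.21 with both proteins and 0.57 ± 0.21 with PDGF-BB (edgeR adjusted p = 0.14 and 0.11). With the block SKP2 passed in both comparisons (edgeR adjusted p = 0.00095 and 0.0003), as did 56.1% and 48.8% of all tested genes. E2F1, a transcription factor held by the retinoblastoma protein, had -0.15 ± 0.35 and -0.23 ± 0.35 (edgeR adjusted p = 0.83 and 0.78). With the block E2F1 passed with PDGF-BB and not with both proteins (edgeR adjusted p = 0.012 and 0.094). PTHLH itself had its highest level under S100A4 alone. A link between the PTHLH level and these genes was not tested.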

How the data were processed

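The values deposited by the authors are raw read counts, 1 whole number per gene in each library, with no normalization. Per the submitters' processing notes, CASAVA 1.8.2, STAR 2.4, featureCounts 1.4.6 and the build Sscrofa11.1 were used. Settings, annotation release and strand use were not given in the sources used here. Libraries were made by the TruSeq RNA protocol and read as 100 nt single ends, per the labels' protocols.

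From these counts, genes were kept by filterByExpr (minimum count 10, by group), scaled by TMM and tested two-sided with the quasi-likelihood test of edgeR 4.0.16 in R 4.3.3, in a fit of 12 libraries with the group means as terms, with Benjamini-Hochberg adjustment over 12444 genes and a threshold of 0.05. SE is that of the log2 change. Log2 CPM used a prior count of 2. There were 7 comparisons: 3 with control, 3 between treatments, and 1 of the interaction. Symbols came from a table of Ensembl identifiers (14572 of 21153 matched), and positions from RefSeq.

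Deviations from group means correlated at r = 0.746 to 0.908 in 18 pairs of libraries with the same replicate number and at -0.676 to 0.136 in 36 pairs with different numbers, so the numbers were taken as pairing the libraries, a choice that rests on the data, since no label says so. As no label ties a library to an animal, p-values cover only the spread among the libraries at hand, which may be technical. No pair within a group agreed within sampling noise (chi-square per gene of at least 18.4). The fit on groups alone leaves this pairing out, so differences between replicate numbers stay in its error. The common coefficient of variation between libraries in edgeR was 27.2% in that fit and 5.14% with the block. A gene not called in the fit on groups alone is not thereby shown to be unchanged.

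The members and lists were chosen with earlier results of these data known. The rule for naming took PTHLH, PTH1R, listed genes called with S100A4 or in the interaction, up to 4 called genes per list with both proteins or PDGF-BB, and the genes most correlated with a member. RAMP1, RAMP2, RAMP3, the PCSK genes, FURIN, KPNB1, SKP2, E2F1, listed genes called with S100A4 only with the block and listed genes below the filter were named after their values were seen, and position chose the neighbouring genes. The test was also run on simulated counts, drawn with no replicate effect and with the spread of the fit with the block. That run therefore cannot show how the fit without the block handles the replicate effect. Alternatives were DESeq2 1.42.0, other scalings and filters, the groups compared alone, the replicate block and leaving out libraries. Sequences of the genes are not used here.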

Additional observations from a re-analysis of the deposited data

Results flagged for a closer look

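Differences in same-numbered pairs were compared for 27 genes: PTHLH, PTH1R and the listed genes named by rule or called with S100A4 with the block. It was asked whether all 3 pairs had one sign with a treatment alone and the opposite sign beside the other protein. Both treatments were looked at for each gene. The share of all tested genes with this pattern was not counted, so these flags have no background to stand beside. PTHLH did so for PDGF-BB: its mean log2 change was -0.55 beside S100A4 and 0.78 without it, a difference of -1.33. This difference was not tested, since PTHLH was chosen with it in view. PTH1R did so for S100A4, with 0.61 beside PDGF-BB and -0.28 without it, a difference of 0.89 at 1 to 22 counts per library. One of its pairs scarcely differed, since replicate 2 had 0.27 CPM with S100A4 and 0.271 CPM in control, and the interaction did not pass (edgeR adjusted p = 1, block 0.71). ADCY7, an adenylyl cyclase, did so for PDGF-BB, with 0.04 beside S100A4 and -0.11 without it, a difference of 0.14, and its interaction did not pass either (edgeR adjusted p = 1, block 0.43). The groups of 3 libraries are too small for a check on single outlying libraries.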

How the results depend on the processing

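For PTHLH the log2 change against control was 1.36 to 1.44 with both proteins, 1.97 to 2 with S100A4 and 0.76 to 0.82 with PDGF-BB over 7 other tools, scalings, filters, sets of groups and the replicate block, and the interaction was -1.37 to -1.35 over 6. Without single libraries or a whole replicate number the ranges were 1.23 to 1.61, 1.83 to 2.2, 0.57 to 1 and -1.58 to -1.13. They were 0.42 to 0.86 for both proteins against PDGF-BB, -0.77 to -0.39 against S100A4, and 0.99 to 1.42 for S100A4 against PDGF-BB. The shortfall from the sum was -25 to -15.9 CPM, against -19.1 CPM with all libraries.

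PTH1R, which did not pass under any of these settings, changed sign when libraries were left out in all comparisons but PDGF-BB against control, where it was -1.99 to -0.06. It was -1.01 to 0.47 with both proteins and -1.25 to 0.6 with S100A4 against control, -0.09 to 1.6 and -0.76 to 0.85 for both proteins against PDGF-BB and S100A4, -0.32 to 1.74 for S100A4 against PDGF-BB and -0.07 to 1.85 for the interaction. It was not tested with the stricter filter, with the groups compared alone or without replicate 1, which removed it.

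The replicate block raised the listed genes called to 47 with both proteins, 15 with S100A4 and 45 with PDGF-BB, against 19, 0 and 10 without it, and all genes to 6982, 1336, 6075 and, in the interaction, 14, against 2732, 70, 1830 and 0. It turned no direction of PTHLH or PTH1R and changed no call of PTH1R. With only the groups compared, listed genes called were 12 with both proteins and 5 with PDGF-BB, and all genes were 28 with S100A4 and 1060 with PDGF-BB. DESeq2 called 1 listed gene with S100A4, and 205 of all genes with S100A4 and 1 in the interaction. With libraries left out the listed count was 4 to 24 with both proteins, 0 to 1 with S100A4 and 2 to 17 with PDGF-BB. The lowest of the first and last came without replicate 1 of all groups, the highest without replicate 2, and without replicate 3 they were 6 and 4. All genes called were 502 to 3349, 0 to 82 and 131 to 2139 in these comparisons. Of the 25 calls of listed genes named by rule, 11 were lost without at least 1 single library and none turned direction. Libraries were left out only in the fit without the block. With the block and all libraries, each of the 25 calls passed. The cause of these differences was not tested.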
